A study of Mus musculus with 39 samples.

Results

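Transcripts of 9 genes of lipid-associated macrophages were followed in sorted monocytes and synovial macrophages of arthritic and control mice. The genes were Trem2, Tyrobp, Gpnmb, Fabp5, Lgals3, Cd63, Cd9, Lpl and Plin2, taken by symbol from the count tables, where they are 9 of 23337 symbols. All 9 passed the filter on low counts, which left 12450 genes for testing. The 39 libraries form 13 groups of 3. HUPO mice carry the genotype labelled Flipflox/floxCD11ccre, a floxed Flip gene (symbol Cflar, an inhibitor of death receptor signalling) with Cre driven by CD11c, and had established arthritis. Control mice are labelled Flipflox/floxCD11c+, so they carry the floxed gene too, and were littermates or were matched for age and gender. All were C57BL/6 mice of 21 to 37 weeks. From ankle joint tissue of both arms came populations labelled synovial macrophages, FH1 and FH2 (F4/80 high) and FI1 and FI3 (F4/80 intermediate), and from HUPO ankles also FI2. Blood of both arms gave the classical (CM) and the non-classical monocytes (NCM). CD11c, which drives the Cre, is found on dendritic cells and on part of the macrophages and monocytes, also outside the joint. For 3 control libraries (FI3 replicate 3 and FH2 replicates 1 and 3) the title adds a suffix to the animal number that the labels do not explain, so whether each holds 1 animal is not known. Each library was made from more than 400 sorted cells by SMART-Seq v4, which amplifies full-length cDNA.

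TREM2 is a receptor of macrophages and microglia that binds lipids and lipoproteins and signals through the adaptor DAP12, the product of Tyrobp. In microglia near plaques and in macrophages of obese fat tissue and atherosclerotic lesions, TREM2 is needed for a gene programme of lipid uptake, storage and lysosomal breakdown, to which the other genes belong. Lpl encodes lipoprotein lipase, which frees fatty acids from lipoprotein triglycerides. Fabp5 encodes a carrier of fatty acids in the cytosol, and Plin2 a coat protein of lipid droplets. Gpnmb encodes a glycoprotein of lysosomes and the cell surface, Cd63 a tetraspanin of late endosomes and Cd9 a tetraspanin of the plasma membrane. Lgals3 encodes galectin-3, a lectin that binds beta-galactosides and is made in large amounts by macrophages.

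The promoters of Lgals3, Gpnmb and Plin2 are printed because these genes were higher together in HUPO F4/80-high libraries, and that of Trem2 because it was not. They are the 250 bases before the RefSeq start on GRCm38.p6, read 5′ to 3′ along the gene, and RefSeq's table held promoters of 6 of the 9 genes. The capitals mark letters of a searched motif.
Lgals3 (chr14:47373610-47373859, plus strand): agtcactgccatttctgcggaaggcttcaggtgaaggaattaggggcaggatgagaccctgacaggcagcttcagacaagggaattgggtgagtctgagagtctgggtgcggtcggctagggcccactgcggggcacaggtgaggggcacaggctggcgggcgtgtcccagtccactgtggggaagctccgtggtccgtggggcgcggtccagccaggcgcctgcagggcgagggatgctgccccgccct
Gpnmb (chr6:49036268-49036517, plus strand): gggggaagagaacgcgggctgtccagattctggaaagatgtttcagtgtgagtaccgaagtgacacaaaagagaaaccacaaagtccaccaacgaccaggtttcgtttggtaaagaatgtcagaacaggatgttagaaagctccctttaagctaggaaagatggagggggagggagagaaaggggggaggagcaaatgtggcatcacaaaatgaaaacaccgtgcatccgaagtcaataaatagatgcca
Plin2 (chr4:86670060-86670309, minus strand): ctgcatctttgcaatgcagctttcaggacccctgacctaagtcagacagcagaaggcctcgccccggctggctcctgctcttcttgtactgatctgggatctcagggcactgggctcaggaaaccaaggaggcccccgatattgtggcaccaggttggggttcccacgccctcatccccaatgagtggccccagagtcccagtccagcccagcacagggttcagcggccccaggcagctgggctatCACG
Trem2 (chr17:48346151-48346400, plus strand): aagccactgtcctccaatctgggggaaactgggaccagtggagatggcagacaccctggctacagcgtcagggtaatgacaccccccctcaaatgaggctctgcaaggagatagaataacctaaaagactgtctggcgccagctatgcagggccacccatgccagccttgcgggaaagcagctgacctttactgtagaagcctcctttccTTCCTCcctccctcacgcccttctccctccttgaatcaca

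Both strands of a window reaching 50 bases past the start were searched for CACGTG (the E-box read by MiT/TFE factors), TGACTCA (AP-1) and GAGGAA (the core of PU.1 sites). The windows around 2 of the matches are shown because they lie at or after the start.
Gpnmb window (chr6:49036517-49036540, plus strand): aggggcaagTGACTCAtgagcacg
Plin2 window (chr4:86670049-86670072, minus strand): ctgggctatCACGTGgctcggagg
Gpnmb held TGACTCA just after its start and Plin2 held CACGTG across it. The Trem2 promoter held GAGGAA on the reverse strand (TTCCTC in the run above), its first letter 40 bases before the start. Cd63 held GAGGAA in 2 places, and the windows of Lgals3 and Cd9 held no match. Matches are common: CACGTG stands in 7.15% of 32851 promoters, TGACTCA in 5.2% and GAGGAA in 28.3%. No match of one motif overlapped another, and a match is a run of letters, not a bound site.

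Per library, 3116615 to 14100712 reads were counted on genes. Values are given as CPM, read counts scaled to a common library total with TMM factors, so a level is a share of the RNA of that library. In these bulk libraries, fewer cells that express a gene and less RNA per cell cannot be told apart. Cflar averaged 58.4 CPM in HUPO FH1 and 40.7 CPM in HUPO FH2, against 159.7 CPM in control FH1 and 218.8 CPM in control FH2, without overlap between the arms. In CM, NCM, FI1 and FI3 the Cflar ranges of the arms overlapped. Macrophage and monocyte markers (Csf1r, Cd68, Fcgr1, Mertk, Itgam and Emr1, the older symbol of Adgre1, which encodes F4/80) summed to 2224 CPM or more in each library. Neutrophil markers summed to 16539 CPM or more in the FI1 libraries of both arms, and fibroblast markers to 618, 9013 and 9400 CPM in the control FI1 libraries. From Xist and Y-linked transcripts, 14 libraries read as male, 24 as female and 1, from control FH2, held both. All 6 control blood libraries read as male, against 2 of 6 HUPO blood libraries. CM and NCM of an arm came from the same animals, and sex was not matched between the blood arms.

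The highest group differed from gene to gene. Trem2 and Cd63 were highest in the F4/80-high macrophages, Gpnmb and Fabp5 in HUPO FH2, Plin2 in HUPO FI2, Cd9 in HUPO FI3 and Lpl in control FI3, while Tyrobp was highest in classical monocytes. Lgals3 stood at one level in 4 HUPO ankle populations and lower elsewhere. Groups are ordered below by their mean CPM (mean ± SD, n = 3).

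Trem2 averaged 569 ± 96.6 CPM in HUPO FH1 and 798 ± 125 CPM in control FH1. It averaged 476 ± 46.8 CPM in HUPO FH2 and 526 ± 146 CPM in control FH2. FI3 lay between 75.2 and 217 CPM and FI2 between 56.6 and 102 CPM, and FI1 and CM at 80.1 CPM or less. In the NCM libraries of both arms no Trem2 read was counted, which allows a level of up to 0.157 CPM in HUPO NCM and 0.117 CPM in control NCM. Of 12 neighbouring pairs in the Trem2 order, 8 overlapped.

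Tyrobp, the adaptor, spanned the narrowest range, from 2033 ± 252 CPM in control CM to 715 ± 68.2 CPM in control FI3, a ratio of 2.84. Cd63 averaged 710.2 ± 60.9 CPM in HUPO FH1 and 707 ± 22.0 CPM in control FH1, while 9 of the 12 blood libraries had no Cd63 read. Gpnmb averaged 874 ± 332 CPM in HUPO FH2, 339.8 ± 103 CPM in HUPO FH1 and 157 ± 78.1 CPM in HUPO FI3. No control group averaged more than 44.8 CPM of Gpnmb, and 12 of the 39 libraries held none.

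Fabp5 averaged 654 ± 298 CPM in HUPO FH2 and 227 ± 33.3 CPM in HUPO FH1, and its lowest group was control FH1 at 4.37 ± 3.89 CPM. Lgals3 averaged 6765 ± 525 CPM in HUPO FH2, 6711 ± 697 CPM in HUPO FH1, 6699.8 ± 492 CPM in HUPO FI2 and 6693 ± 821 CPM in HUPO FI3. These 4 Lgals3 groups overlapped, and each of their libraries lay above each library of the other 9 groups. Cd9 ran from 2478 ± 75.9 CPM in HUPO FI3 to 59.4 ± 22.5 CPM in HUPO CM. Lpl was scattered within groups, with 824, 1772 and 472 CPM in the control FI3 libraries. Plin2 averaged 2052 ± 93.6 CPM in HUPO FI2 and was at 199.8 CPM or more in each library. In the Gpnmb, Lpl and Plin2 orders, 11 of 12 neighbouring pairs overlapped, though groups further apart in the order could be separate.

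**Figure D1:**
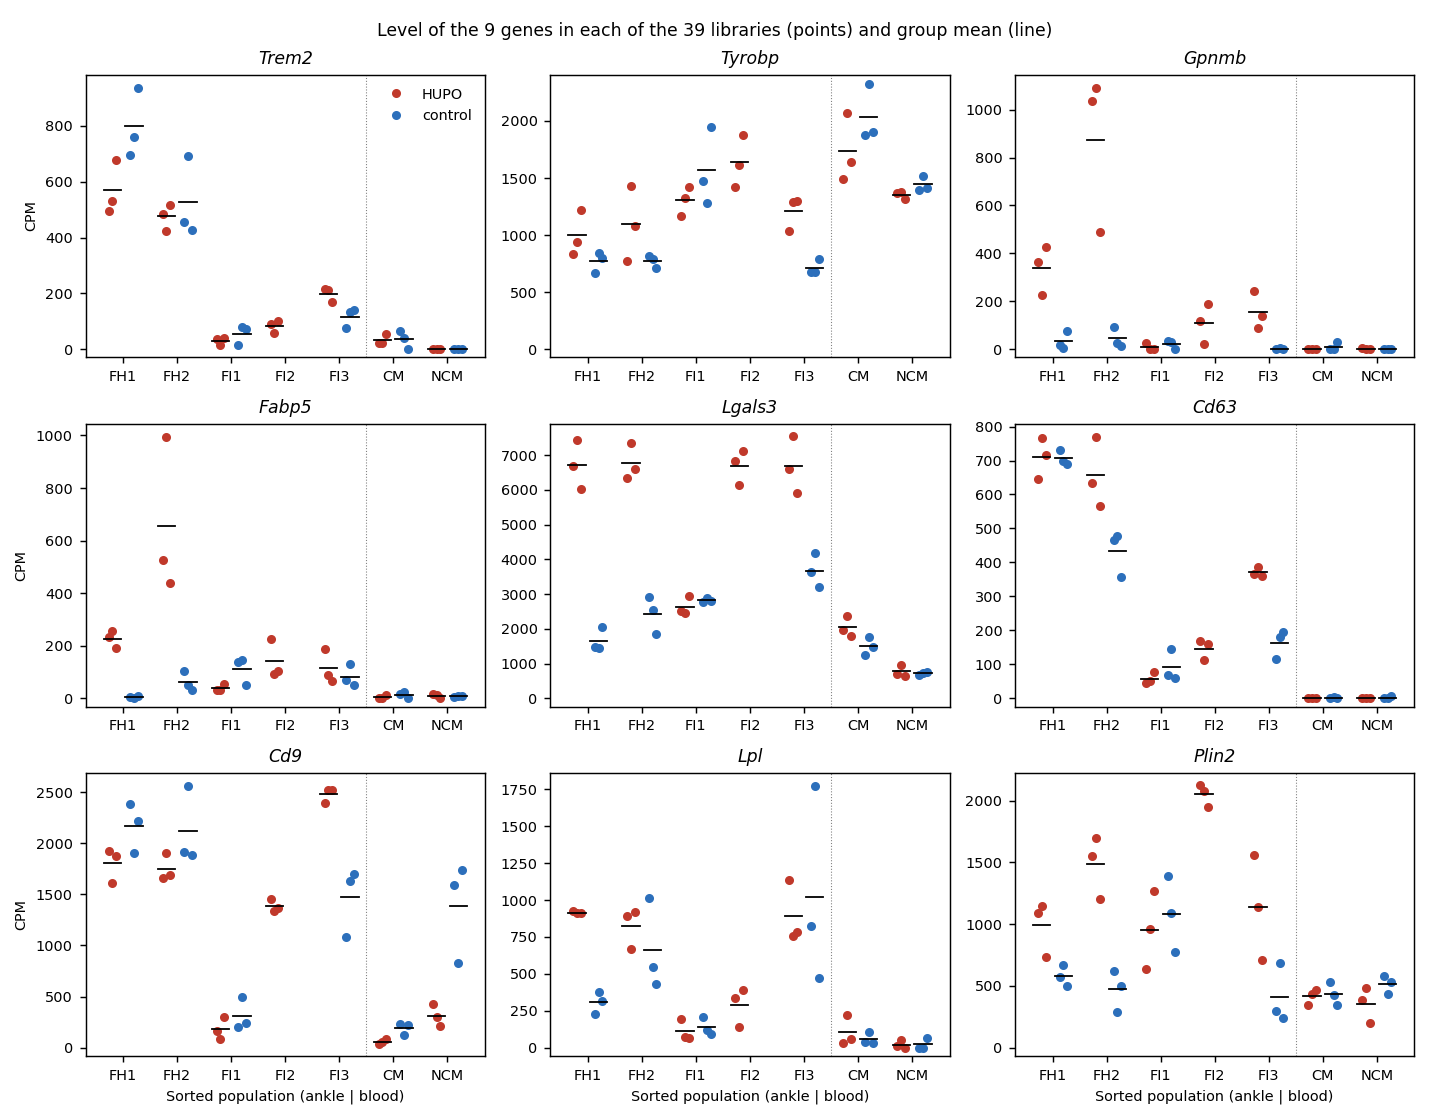
CPM of each of the 9 genes (1 panel each, linear axis) in each library (points) by sorted population, with HUPO left of control in each population and the group mean as a line. Trem2 is at 0 in the NCM libraries, Lgals3 is near 6700 CPM in HUPO FH1, FH2, FI2 and FI3, and Cd9 in NCM is lower in HUPO than in control mice.

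Levels of different genes were compared per kilobase of the principal coding transcript. On this scale Lgals3 led in HUPO FH1, at 4729 CPM per kb, ahead of Tyrobp at 1775 and Cd9 at 1469.7 CPM per kb. In control FH1, Cd9 led at 1765 CPM per kb, ahead of Tyrobp at 1367, Lgals3 at 1171 and Trem2 at 734 CPM per kb. Blood was led by Tyrobp, with 3073 CPM per kb in HUPO CM and 3605 CPM per kb in control CM. In HUPO FH1, Gpnmb stood at 91.8 CPM per kb.

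**Figure D2:**
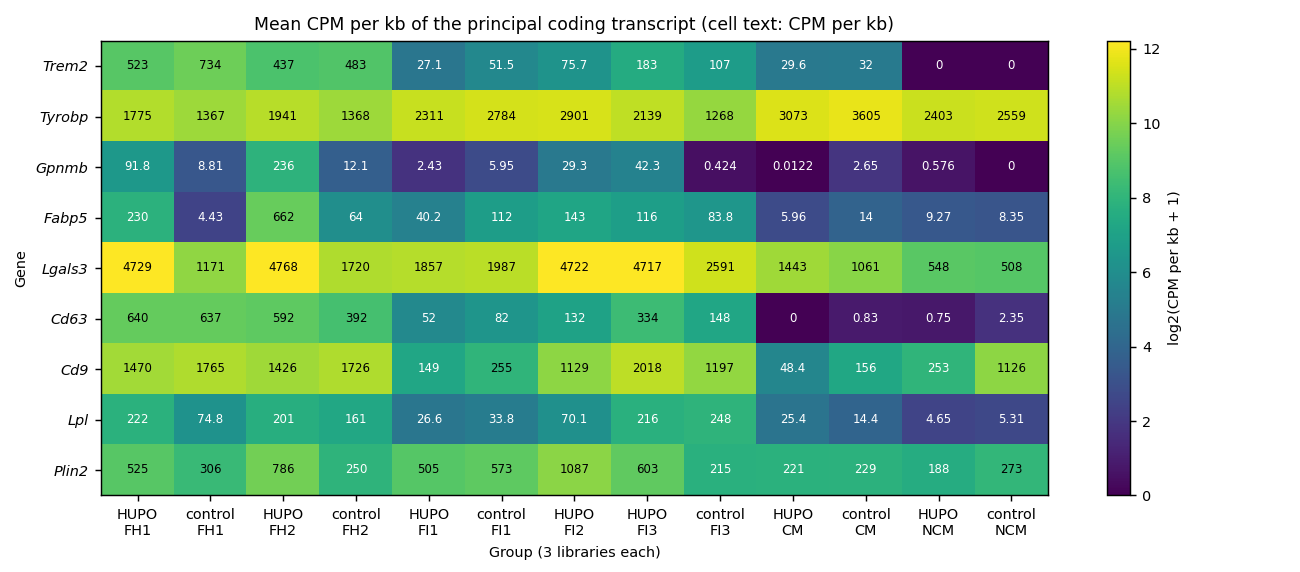
Mean CPM per kb of the principal coding transcript for the 9 genes (rows) in the 13 groups (columns, 3 libraries each), with the colour on a log2(CPM per kb + 1) scale and the value in each cell. Tyrobp leads the CM columns, at 3073 and 3605 CPM per kb, and Lgals3 leads the HUPO FH1 column at 4729 CPM per kb.

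Whether arthritis in HUPO mice came with other levels of these genes was asked first in the F4/80-high macrophages. Lgals3 rose 4.04-fold in HUPO FH1 and 2.77-fold in HUPO FH2, and Plin2 rose 3.15-fold in HUPO FH2. Gpnmb, Fabp5 and, in FH1, Lpl and Plin2 were higher in each HUPO library than in each control library without passing the test. Trem2 did not follow them. With edgeR's quasi-likelihood test, adjusted over all genes by Benjamini-Hochberg and called at adjusted p under 0.05, 1 of the 9 genes was called in FH1, where 0.843% of all genes tested were called. In FH2, 2 of the 9 were called, against 0.651% of all genes. The share of all genes without overlap between the arms was not counted in FH1 or FH2.

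Lgals3, the galectin-3 gene at 14:47367751-47386160 on GRCm38, had 6676, 7425 and 6032 CPM in the HUPO FH1 libraries, against 1484, 1438 and 2061 CPM in the control FH1 libraries. In FH2 it had 6337, 7351 and 6607 CPM in the HUPO FH2 libraries, against 2907, 2549.7 and 1863 CPM in the control FH2 libraries. Each HUPO value was above each control value in both populations. The log2 fold change of Lgals3 by edgeR was 2.01 ± 0.17, adjusted p = 5e-09 in FH1 and 1.47 ± 0.17, adjusted p = 2.3e-06 in FH2 (n = 3 libraries per group).

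Plin2, the lipid droplet coat, had 1551, 1695 and 1206 CPM in the HUPO FH2 libraries, against 621, 293 and 502 CPM in the control FH2 libraries. The arms did not overlap, and the log2 fold change by edgeR was 1.65 ± 0.35, adjusted p = 0.013. The Plin2 call in FH2 was lost without control FH2 replicate 2 (adjusted p = 0.18), control FH2 replicate 3 (0.060) or HUPO FH2 replicate 2 (0.070). In FH1, Plin2 had 1087, 1148 and 738 CPM in the HUPO FH1 libraries, against 571, 666 and 498 CPM in the control FH1 libraries. Those arms did not overlap either, but the difference was not called (log2 0.78 ± 0.34, adjusted p = 0.64, edgeR).

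Gpnmb, the lysosomal glycoprotein gene, had 365, 227 and 428 CPM in the HUPO FH1 libraries, against 17.6, 5.75 and 74.4 CPM in the control FH1 libraries. In FH2 it had 1037, 1092 and 491 CPM in the HUPO FH2 libraries, against 93.6, 26.3 and 14.5 CPM in the control FH2 libraries. The lowest HUPO library exceeded the highest control library in both populations. Controls varied many-fold among themselves. The difference was not called by edgeR (log2 3.39 ± 1.84, adjusted p = 0.72 in FH1 and 4.28 ± 1.91, adjusted p = 0.63 in FH2). Its error is estimated over all 13 groups, not from the compared libraries alone.

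Fabp5, the fatty acid carrier, had 233, 257 and 191 CPM in the HUPO FH1 libraries, against 5.67, 0 and 7.44 CPM in the control FH1 libraries. In FH2 it had 527, 995 and 439.8 CPM in the HUPO FH2 libraries, against 104, 52.6 and 33.0 CPM in the control FH2 libraries. Again no HUPO library overlapped a control library. The Fabp5 log2 fold change was 5.71 ± 1.50, adjusted p = 0.066 in FH1 by edgeR, and was not called. DESeq2 gave adjusted p = 0.00018, but it called a far larger share of all genes in FH1 than edgeR did. In FH2 it was 3.37 ± 1.33, adjusted p = 0.55 by edgeR.

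Lpl, the lipase gene, had 922, 912 and 911 CPM in the HUPO FH1 libraries, against 229.7, 376 and 318 CPM in the control FH1 libraries. The HUPO FH1 libraries lay close together and above the controls, but edgeR did not call the difference (log2 1.57 ± 1.25, adjusted p = 1). This error, too, is estimated over all 13 groups and does not measure the spread within FH1. In FH2, Lpl had 895, 665 and 921 CPM in the HUPO FH2 libraries, against 1011, 549.8 and 431 CPM in the control FH2 libraries, and the arms overlapped.

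Trem2, the receptor, had 496, 532 and 678 CPM in the HUPO FH1 libraries, against 697, 761 and 937 CPM in the control FH1 libraries. The HUPO FH1 values were all below the control values, with a log2 fold change of -0.49 ± 0.81, adjusted p = 1 by edgeR. In FH2, Trem2 had 485, 425 and 518 CPM in the HUPO FH2 libraries, against 457, 693 and 427 CPM in the control FH2 libraries, which overlapped. Its adaptor Tyrobp had 838, 943 and 1224 CPM in the HUPO FH1 libraries, against 669, 842 and 802 CPM in the control FH1 libraries, which overlapped as well, and neither gene was called in FH1 or FH2.

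Cd63 and Cd9, the tetraspanins, were not called in either F4/80-high population. Cd63 had 646, 767 and 717 CPM in the HUPO FH1 libraries, against 732, 697 and 691 CPM in the control FH1 libraries, and in FH2 634, 769.6 and 566 CPM in the HUPO FH2 libraries, against 466, 479 and 358 CPM in the control FH2 libraries. Cd63 was thus level in FH1 and higher without overlap in HUPO FH2, where log2 was 0.60 ± 1.00, adjusted p = 1 by edgeR. Cd9 had 1927, 1613 and 1874 CPM in the HUPO FH1 libraries, against 2383, 1902 and 2219 CPM in the control FH1 libraries, and the ranges met in FH2 too (log2 -0.28 ± 0.35, adjusted p = 1, edgeR).

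Markers of other cells moved with these differences. In FH1 the neutrophil list (9 of 11 markers with counts in HUPO, 8 of 11 in control, Mpo and Elane at 0 in both arms and Cxcr2 at 0 in control) summed to 1728 to 10240 CPM in HUPO and 6.00 to 886 CPM in control libraries. In FH2 it summed to 338 to 4531 CPM in HUPO and 48.4 to 957 CPM in control libraries. Osteoclast markers summed in FH1 to 646 to 2153 CPM in HUPO (3 of 6 with counts) and 223.5 to 644 CPM in control libraries (2 of 6). In FH2 they summed to 461.5 to 863 CPM in HUPO (3 of 6) and 177 to 565 CPM in control libraries (5 of 6). Dendritic cell markers summed in FH1 to 0 to 15.8 CPM in HUPO (2 of 6) and 37.9 to 111 CPM in control libraries (3 of 6), and in FH2 to 0 to 18.7 CPM in HUPO (3 of 6) and 215 to 327 CPM in control libraries (5 of 6). Classical monocyte markers summed in FH1 to 1850 to 2182 CPM in HUPO and 3650 to 6110 CPM in control libraries (5 of 5 in both), and in FH2 to 1260 to 1517 CPM in HUPO (5 of 5) and 1648 to 2767 CPM in control libraries (4 of 5). Non-classical markers overlapped in FH1 and summed in FH2 to 1274 to 1956 CPM in HUPO and 2106 to 2739 CPM in control libraries (5 of 6 in both). The macrophage and monocyte markers summed in FH1 to 5538 to 6499 CPM in HUPO and 7837 to 8427 CPM in control libraries (6 of 6 in both) and overlapped in FH2. Of these lists, neutrophil and osteoclast markers overlapped between the arms in FH2 and the others named with values did not overlap. The part of these cells in the levels of Lgals3, Gpnmb, Fabp5, Plin2 and Lpl was not tested. Adipocyte markers, of cells that also express Lpl, summed to at most 8.44 CPM in HUPO FH1 and 0 in HUPO FH2.

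In FI3, Lgals3, Plin2 and Tyrobp rose in HUPO libraries. Trem2, Gpnmb, Cd63 and Cd9 were also higher in each HUPO FI3 library than in each control FI3 library, but were not called, and Fabp5 and Lpl overlapped. So 3 of the 9 genes were called by edgeR, all higher, against 1.07% of all genes tested. How many of all genes tested separated without overlap in FI3 was not counted.

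Lgals3 in FI3 had 6597, 7558 and 5924 CPM in the HUPO FI3 libraries, against 3627, 4190.4 and 3213 CPM in the control FI3 libraries, a log2 fold change of 0.86 ± 0.17, adjusted p = 0.0033 by edgeR. Plin2 had 1561, 1141 and 712 CPM in the HUPO FI3 libraries, against 297, 685 and 238 CPM in the control FI3 libraries (log2 1.48 ± 0.35, adjusted p = 0.022, edgeR). The highest control Plin2 value came close to the lowest HUPO value. Tyrobp, which carries the TREM2 signal, had 1037, 1288 and 1294 CPM in the HUPO FI3 libraries, against 675, 676 and 794 CPM in the control FI3 libraries (log2 0.76 ± 0.19, adjusted p = 0.033, edgeR). Only Lgals3 was called without each library in turn. The Plin2 call was lost without control FI3 replicate 1 or 3 or HUPO FI3 replicate 1 or 2 (adjusted p = 0.071 to 0.21). The Tyrobp call held in 2 of 10 alternatives, DESeq2 and leaving out HUPO FI3 replicate 1. It was lost without any one control FI3 library or HUPO FI3 replicate 2 or 3 (0.058 to 0.18), with DESeq2's size factors in edgeR (0.15), with no filter (0.060) and with a term for sex (0.21).

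Trem2 in FI3 had 217, 213 and 168 CPM in the HUPO FI3 libraries, against 75.2, 134 and 140 CPM in the control FI3 libraries. The direction is opposite to that in FH1, and the log2 fold change of 0.77 ± 0.82, adjusted p = 0.94 was not called by edgeR. Gpnmb had 242, 89.4 and 138 CPM in the HUPO FI3 libraries, against 0, 4.71 and 0 CPM in the control FI3 libraries, so it was counted in only 1 control library. Its log2 fold change was 6.57 ± 2.17, adjusted p = 0.22 by edgeR. DESeq2 gave adjusted p = 0.0096, but it called a far larger share of all genes in FI3 than edgeR did. Cd63 had 365, 388 and 359.9 CPM in the HUPO FI3 libraries, against 115, 181 and 196 CPM in the control FI3 libraries and Cd9 had 2390.4, 2520.3 and 2523 CPM in the HUPO FI3 libraries, against 1077, 1631 and 1702 CPM in the control FI3 libraries. HUPO values of both tetraspanins lay closer together than control values did, and above them (log2 1.18 ± 1.01, adjusted p = 0.83 for Cd63 and 0.75 ± 0.35, adjusted p = 0.45 for Cd9, edgeR).

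The FI3 arms differed in other lists as well. Dendritic cell markers summed to 56.2 to 249 CPM in HUPO FI3 (5 of 6 with counts) and 1506.3 to 1987 CPM in control FI3 (6 of 6). Osteoclast markers summed to 1405 to 2274 CPM in HUPO FI3 and 255.5 to 658 CPM in control FI3 (5 of 6 in both, Calcr at 0 in both). Neutrophil markers summed to 494.5 to 1417 CPM in HUPO FI3 (10 of 11) and 0.231 to 28.2 CPM in control FI3 (6 of 11). Fibroblast markers summed to 347 to 444 CPM in HUPO FI3 and 26.3 to 66.0 CPM in control FI3 (7 of 10 in both). The platelet list summed to 78.5 to 183 CPM in HUPO FI3 (3 of 6) and 493 to 1013 CPM in control FI3 (1 of 6). Macrophage and monocyte markers summed to 3660 to 4930 CPM in HUPO FI3 and 2956 to 3345 CPM in control FI3 (6 of 6 in both), and classical monocyte markers to 1232 to 1618 CPM in HUPO FI3 (5 of 5) and 1701 to 2087 CPM in control FI3 (2 of 5). None of these lists overlapped between the FI3 arms. Of the control FI3 libraries 2 read as male, and of the HUPO FI3 libraries 0. With a term for sex, Lgals3 was the only one of the 9 genes called in FI3 by edgeR. The part of these cell types in the FI3 levels of Lgals3, Plin2 and Tyrobp was not tested.

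In FI1, none of the 9 genes was called by edgeR, against 0.225% of all genes. An unadjusted edgeR p under 0.05 was found for 1 of the 9 (Cd9) and for 1052 of the 12450 genes tested. DESeq2 called none of the 9. Lgals3 in FI1 had 2517, 2449 and 2941 CPM in the HUPO FI1 libraries, against 2765, 2886 and 2809 CPM in the control FI1 libraries, within the spread of the libraries and far below HUPO FI3. Trem2 had 34.7, 15.2 and 38.5 CPM in the HUPO FI1 libraries, against 15.2, 80.1 and 72.9 CPM in the control FI1 libraries, with the lowest control value at the level of the lowest HUPO value. Gpnmb had 25.2, 0 and 1.79 CPM in the HUPO FI1 libraries, against 34.7, 31.4 and 0 CPM in the control FI1 libraries, with 1 library at 0 in each arm. Cd9 had 163, 86.9 and 300.2 CPM in the HUPO FI1 libraries, against 201, 499 and 241 CPM in the control FI1 libraries (log2 -0.77 ± 0.35, adjusted p = 0.59, edgeR). The control FI1 libraries with the higher Trem2 and Cd9 were those rich in fibroblast transcripts (replicates 2 and 3), and without them the Trem2 log2 fold change was 0.96.

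In blood, Cd9 fell in HUPO mice, 4.45-fold in NCM and 3.22-fold in CM. It was the only one of the 9 genes called by edgeR in either population, where 0.731% of all genes were called in NCM and 0.562% in CM. Cd9 had 428, 296 and 208 CPM in the HUPO NCM libraries, against 1589, 824 and 1734 CPM in the control NCM libraries. In CM it had 36.7, 59.9 and 81.7 CPM in the HUPO CM libraries, against 229, 125 and 219 CPM in the control CM libraries. No HUPO library reached the lowest control library in either population. The log2 fold change of Cd9 was -2.15 ± 0.36, adjusted p = 0.00094 in NCM and -1.69 ± 0.36, adjusted p = 0.016 in CM by edgeR. The NCM call held without each library in turn. The CM call was lost without control CM replicate 1 or 3 or HUPO CM replicate 1 or 2 (adjusted p = 0.071 to 0.076).

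Sex and other cells moved with Cd9 in blood. All 6 control blood libraries read as male. The male HUPO animal, the same in both populations, had 428 CPM of Cd9 in NCM and 36.7 CPM in CM, below the control libraries of each population. Platelets are rich in CD9, and the platelet list summed to 156 to 323 CPM in HUPO NCM and 362 to 806 CPM in control NCM (6 of 6 markers with counts in both). In CM it summed to 30.3 to 132 CPM in HUPO (6 of 6) and 205 to 328 CPM in control libraries (5 of 6, Itgb3 at 0). Non-classical markers summed to 2439 to 4495 CPM in HUPO NCM and 6235 to 9546 CPM in control NCM, and to 506 to 793 CPM in HUPO CM and 2892 to 3582 CPM in control CM (6 of 6 in each). Classical markers summed to 532 to 667 CPM in HUPO NCM (4 of 5) and 34.9 to 226 CPM in control NCM (3 of 5), and to 7076 to 8313 CPM in HUPO CM and 3231 to 4564 CPM in control CM (5 of 5 in both). The part of platelets and of the monocyte mix in the Cd9 levels was not tested. Exons of Cd9 (6:125460266-125494791, GRCm38) overlap by 218 bases those of Gm26728 on the opposite strand, and the counting is not stated to use strand.

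None of the other genes was called in blood. Tyrobp had 1369.9, 1379 and 1316 CPM in the HUPO NCM libraries, against 1395, 1521 and 1414 CPM in the control NCM libraries, and in CM 1493, 2069.8 and 1637 CPM in the HUPO CM libraries, against 1875, 2324 and 1900.1 CPM in the control CM libraries. The HUPO NCM values were slightly below the control values (log2 -0.09 ± 0.18, adjusted p = 1, edgeR), and the CM values overlapped. Lgals3 had 1972, 2369.6 and 1799 CPM in the HUPO CM libraries, against 1255, 1772 and 1491 CPM in the control CM libraries, each HUPO value above each control value (log2 0.44 ± 0.16, adjusted p = 0.32, edgeR). Trem2 had 22.3, 21.5 and 52.9 CPM in the HUPO CM libraries, against 64.2, 40.2 and 0 CPM in the control CM libraries, which overlapped. Plin2 lay between 199.8 and 579.6 CPM in the blood libraries of both arms. Gpnmb in CM was at 0, 0.135 and 0 CPM in HUPO libraries, 1 count in all, and no fold is given.

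**Figure D3:**
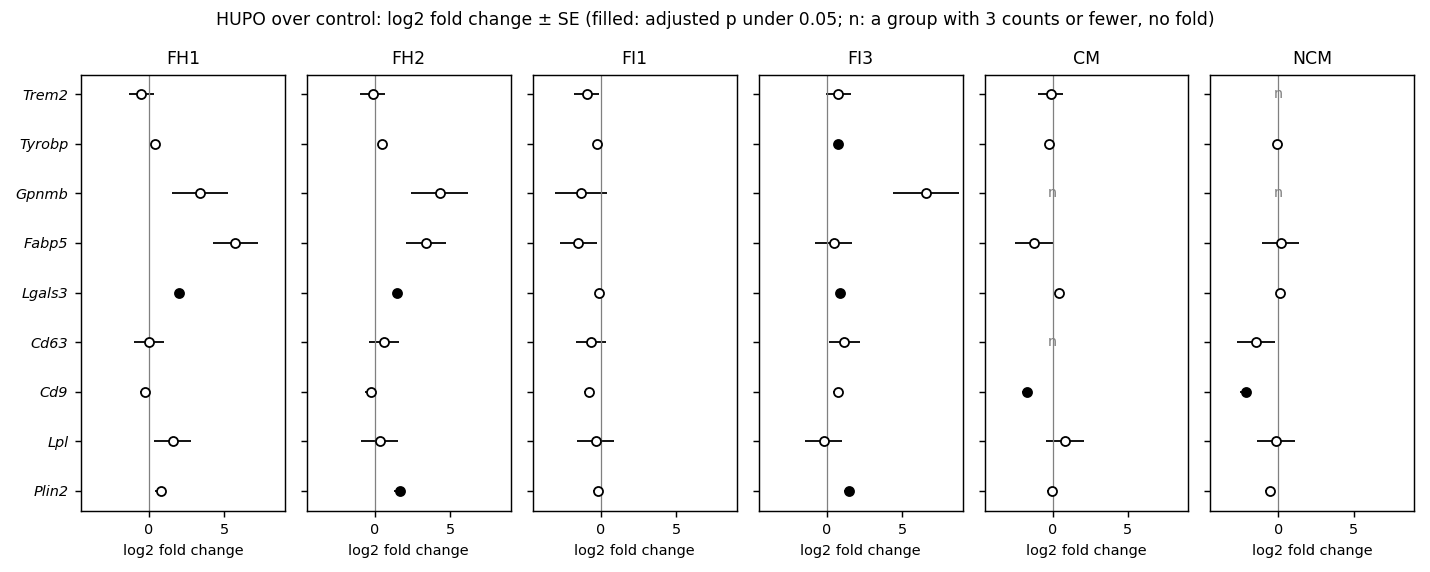
Log2 fold change of HUPO over control ± SE for the 9 genes (rows) in the 6 populations present in both arms (panels), with filled points for adjusted p under 0.05 by edgeR and n where a group held 3 counts or fewer. The filled points are Lgals3 in FH1, FH2 and FI3, Plin2 in FH2 and FI3, Tyrobp in FI3, and Cd9, on the negative side, in CM and NCM.

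Over the 6 populations, Lgals3 was higher without overlap in 4 (FH1, FH2, FI3 and CM), Gpnmb and Plin2 in 3 each (FH1, FH2 and FI3), and Fabp5 (FH1, FH2) and Cd63 (FH2, FI3) in 2 each. Cd9 was higher without overlap in FI3 and lower without overlap in CM and NCM. Trem2 was higher without overlap in FI3 and lower in FH1. With groups of 3, the smallest p that exact permutation of the library labels allows for a gene is 0.1. The share of all genes tested that separated in this way was not counted, so these tallies describe the 9 genes and carry no test. Populations of a tissue share animals within an arm, so agreement between populations is not independent. The median log2 fold change of the 9 genes was 0.78 in FH1, 0.60 in FH2 and 0.77 in FI3, against medians over all genes tested of 0, -0.11 and 0. In FI1 it was -0.65, in NCM -0.09 and in CM -0.23, each against 0 over all genes.

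The test of whether the difference between HUPO and control mice itself differed between the F4/80 levels called Lgals3 and none of the other 8 genes. The HUPO effect over FH1 and FH2 exceeded that over FI1 and FI3 by log2 1.36 ± 0.16, adjusted p = 1.4e-05 (edgeR), and 0.257% of all genes were called in this contrast. Lgals3 stayed called without each library in turn. FI1 and FI3, averaged here, were unlike. Lgals3 averaged 2636 CPM in HUPO and 2820 CPM in control FI1, with overlap. In FI3 it averaged 6693 CPM in HUPO and 3677 CPM in control libraries, without overlap. The HUPO effect in FH against that in FI3 alone was not tested. Fabp5 had the next smallest p, with a difference of 5.05 ± 1.29, adjusted p = 0.099 by edgeR and adjusted p = 0.00078 by DESeq2. DESeq2 called a far larger share of all genes in this contrast than edgeR did. In the FI libraries Fabp5 overlapped between the arms, with 31.6, 33.8 and 53.6 CPM in the HUPO FI1 libraries, against 137, 146 and 49.6 CPM in the control FI1 libraries, and 189, 88.9 and 65.2 CPM in the HUPO FI3 libraries, against 68.8, 129.5 and 49.8 CPM in the control FI3 libraries. For Plin2 the difference was 0.57 ± 0.34, adjusted p = 0.92 and for Trem2 -0.24 ± 0.82, adjusted p = 1 (edgeR), with errors that cover a wide range of effects.

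**Figure D4:**
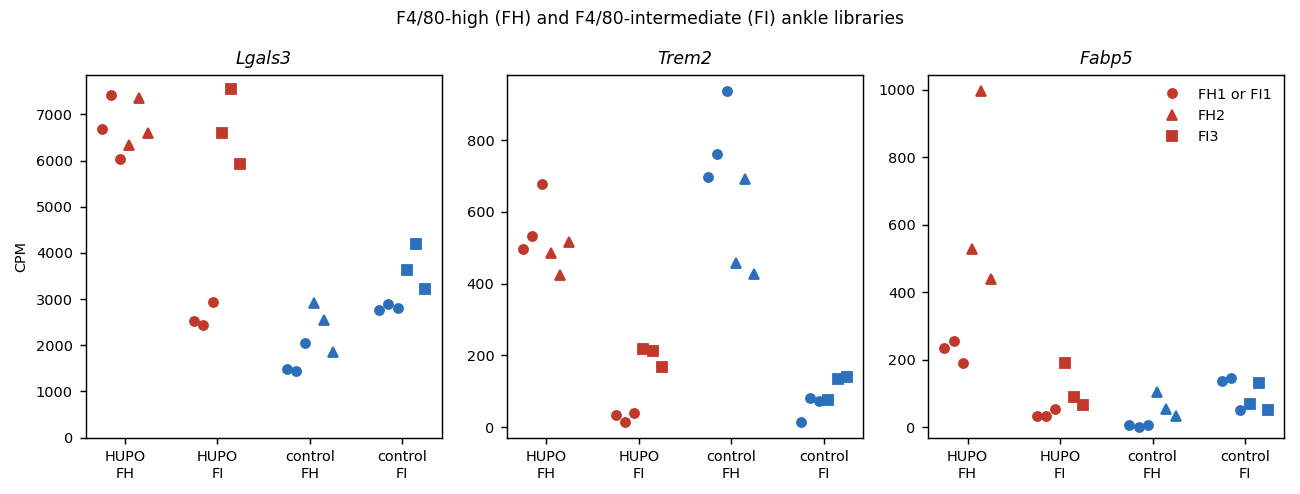
CPM of Lgals3, Trem2 and Fabp5 in the ankle libraries of both arms, with FH left of FI and symbols for the sorted subset (1 point per library). HUPO FH Lgals3 lies between 6032 and 7425 CPM, above all control points, while HUPO FI splits into FI1 (mean 2636 CPM) and FI3 (mean 6693 CPM), and Trem2 separates FH from FI in both arms.

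Within each arm, F4/80-high populations were set against F4/80-intermediate ones (FH1 and FH2 against FI1 and FI3, averaged on the log scale). Trem2 and Cd9 rose in FH in both arms, whereas Lgals3 rose in HUPO FH and fell in control FH. In HUPO mice 3 of the 9 genes were called by edgeR, against 1.98% of all genes, and in control mice 4 of the 9, against 3.94%. With the animal as a replicate block, 159 genes in place of 247 were called over all genes in HUPO mice, and the same number of the 9.

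Trem2 ran from 425 to 678 CPM in HUPO FH and from 15.2 to 217 CPM in HUPO FI. In control mice it ran from 427 to 937 CPM in FH and from 15.2 to 140 CPM in FI. FH and FI did not overlap in either arm, and the log2 difference by edgeR was 2.76 ± 0.61, adjusted p = 0.01 in HUPO and 3.00 ± 0.62, adjusted p = 0.0032 in control mice. Cd9 differed by 1.40 ± 0.25, adjusted p = 0.00083 in HUPO and 1.66 ± 0.25, adjusted p = 3.9e-05 in control mice (edgeR), though HUPO FI3, at 2390 to 2523 CPM, was above HUPO FH. Lgals3 differed by 0.68 ± 0.12, adjusted p = 0.00048 in HUPO and -0.68 ± 0.12, adjusted p = 0.00024 in control mice (edgeR). For Lgals3, HUPO FI3 (5924 to 7558 CPM) overlapped HUPO FH (6032 to 7425 CPM). HUPO FI1 lay lower, at 2449 to 2941 CPM. Control FH (1438 to 2907 CPM) overlapped control FI1 (2765 to 2886 CPM) and lay below control FI3 (3213 to 4190 CPM). Neutrophil markers were high in FI1, as given above, so FH against FI is not a comparison of macrophages alone. The part of neutrophils in the Trem2, Cd9, Lgals3 and Tyrobp differences was not tested. Tyrobp was lower in control FH (log2 -0.46 ± 0.13, adjusted p = 0.04, edgeR), a call that held in 7 of 18 alternatives. Cd63, at 566 to 769.6 CPM in HUPO FH and 358 to 732 CPM in control FH, against 46.0 to 388 CPM in HUPO FI and 58.6 to 196 CPM in control FI, was not called (log2 2.22 ± 0.73, adjusted p = 0.14 and 2.18 ± 0.73, adjusted p = 0.094, edgeR).

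Between the single populations of control mice, FI3 against FI1 called 3 of the 9 genes by edgeR, against 1.94% of all genes. Cd9 had 1077, 1631 and 1702 CPM in the control FI3 libraries, against 201, 499 and 241 CPM in the control FI1 libraries, and rose (log2 2.23 ± 0.36, adjusted p = 0.00022, edgeR). Tyrobp had 675, 676 and 794 CPM in the control FI3 libraries, against 1474, 1285 and 1951 CPM in the control FI1 libraries, and fell (log2 -1.13 ± 0.19, adjusted p = 0.00025, edgeR). Plin2 had 297, 685 and 238 CPM in the control FI3 libraries, against 1387, 1089.9 and 772 CPM in the control FI1 libraries, and fell (log2 -1.41 ± 0.35, adjusted p = 0.024, edgeR). With the animal as a replicate block in edgeR, Plin2 had adjusted p = 0.053, Lgals3 had 0.030 in place of 0.31, and 120 genes in place of 241 were called. Neutrophil markers were far higher in the FI1 libraries, as given above, and their part in Tyrobp and Plin2 was not tested. FH2 against FH1 called none of the 9, against 0.394% of all genes. An unadjusted edgeR p under 0.05 was found for 2 of the 9 and for 667 of the 12450 genes tested. DESeq2 called Fabp5 and Lgals3, and it also called a larger share of all genes than edgeR did. Control Fabp5 had 104, 52.6 and 33.0 CPM in the control FH2 libraries, against 5.67, 0 and 7.44 CPM in the control FH1 libraries, without overlap (log2 3.86 ± 1.38, adjusted p = 0.6, edgeR).

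FI2, sorted from HUPO ankles only, had Lgals3 and Cd9 at higher levels than FI1, and it held the highest Plin2 of the series. Against FI1, 2 of the 9 genes were called by edgeR, both higher, with 0.9% of all genes called. Lgals3 had 6835, 6154 and 7110.4 CPM in the HUPO FI2 libraries, against 2517, 2449 and 2941 CPM in the HUPO FI1 libraries (log2 1.35 ± 0.17, adjusted p = 1.2e-05, edgeR). Cd9 had 1455, 1341 and 1363 CPM in the HUPO FI2 libraries, against 163, 86.9 and 300.2 CPM in the HUPO FI1 libraries (log2 2.92 ± 0.37, adjusted p = 1.7e-05, edgeR). Plin2 had 2128, 2080.3 and 1947 CPM in the HUPO FI2 libraries, against 635, 959 and 1265 CPM in the HUPO FI1 libraries, without overlap (log2 1.11 ± 0.34, adjusted p = 0.16, edgeR). Neutrophil markers summed to 3215 to 6402 CPM in HUPO FI2 and 17922 to 26213 CPM in HUPO FI1 (11 of 11 in both), and classical monocyte markers to 2932 to 3931 CPM in HUPO FI2 and 7891 to 9341 CPM in HUPO FI1 (5 of 5 in both). Macrophage and monocyte markers summed to 4523 to 5318 CPM in HUPO FI2 (6 of 6) and 2224 to 2428 CPM in HUPO FI1 (5 of 6, Mertk at 0). None of these 3 lists overlapped, and the part of these cells in Lgals3, Cd9 and Plin2 was not tested. Against FI3, none of the 9 was called and 0.00803% of all genes, 1 gene, was. An unadjusted edgeR p under 0.05 was found for 3 of the 9 and for 791 of the 12450 genes tested. DESeq2 called none of the 9, and with the animal as a replicate block 13 genes were called. Lgals3 in FI2 and FI3 differed by log2 0.00 ± 0.16 (edgeR). Cd9 was 1455, 1341 and 1363 CPM in the FI2 libraries, against 2390.4, 2520.3 and 2523 CPM in the FI3 libraries. Trem2 and Cd63 in FI2 also lay below each FI3 library, at 88.8, 56.6 and 102 CPM in the FI2 libraries for Trem2 and 168, 112 and 161 CPM in the FI2 libraries for Cd63.

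The ankle populations shared by the arms (FI1, FI3, FH1 and FH2) were set against the blood monocytes (CM and NCM) of the same arm. In HUPO mice all 9 genes were called by edgeR, 8 higher in ankle and Tyrobp lower, against 11.2% of all genes. In control mice 7 of the 9 were called, 6 higher and Tyrobp lower, against 12.7% of all genes. Fabp5 and Plin2 were the genes called in HUPO mice and not in control mice, and that difference between the arms was not tested. Neutrophil markers summed to 17922 to 26213 CPM in HUPO FI1 and at most 5885 CPM in HUPO CM. In control mice they summed to 16539 to 23156 CPM in FI1 and at most 603 CPM in CM. All 6 control blood libraries read as male, but not all control ankle libraries. The part of neutrophils in the ankle levels was not tested, and a term for sex was among the alternatives. Several libraries on each side came from the same animals, and no animal block was fitted in these comparisons.

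Lpl rose by log2 3.54 ± 0.91, adjusted p = 0.0093 in HUPO and 3.53 ± 0.91, adjusted p = 0.0082 in control ankles (edgeR). Lgals3 rose by 2.08 ± 0.11, adjusted p = 9.4e-15 in HUPO and 1.29 ± 0.11, adjusted p = 1.1e-10 in control ankles, and Cd9 by 3.01 ± 0.25, adjusted p = 2.1e-10 and 1.23 ± 0.22, adjusted p = 0.00018. Fabp5 differed by 4.46 ± 0.96, adjusted p = 0.0015 in HUPO and 1.90 ± 0.83, adjusted p = 0.14 in control ankles, and Plin2 by 1.55 ± 0.23, adjusted p = 8.3e-06 and 0.32 ± 0.21, adjusted p = 0.44 (edgeR, HUPO before control). Tyrobp fell by 0.42 on the log2 scale in HUPO ankles (adjusted p = 0.011, and 0.060 without HUPO CM replicate 2) and by 0.92 in control ankles (adjusted p = 1.9e-07, edgeR). Trem2, Gpnmb and Cd63 also rose (adjusted p = 2.8e-07, 0.001 and 8e-08 in HUPO and 1.2e-07, 0.044 and 8.4e-07 in control ankles, edgeR), with no fitted fold because whole blood groups were at or near 0. As a bound, Trem2 was at least 3633-fold higher in HUPO FH1 than in HUPO NCM and at least 6845-fold higher in control FH1 than in control NCM, against a floor of 3 counts over the NCM group. The Gpnmb call in control mice held in 9 of 23 alternatives.

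Within blood, NCM were set against CM. Cd9 rose and Lgals3 and Trem2 fell in NCM in both arms. In HUPO mice 3 of the 9 were called by edgeR, against 1.21% of all genes, and in control mice 3 of the 9, against 0.884%. Cd9 differed by log2 2.39 ± 0.37, adjusted p = 0.00023 in HUPO and 2.85 ± 0.37, adjusted p = 1.1e-05 in control mice (edgeR). Lgals3 had 706, 969 and 656 CPM in the HUPO NCM libraries, against 1972, 2369.6 and 1799 CPM in the HUPO CM libraries (log2 -1.40 ± 0.17, adjusted p = 2.7e-06, edgeR), and in control mice differed by -1.06 ± 0.17, adjusted p = 0.00018. Trem2 was at 0 in NCM and at 22.3, 21.5 and 52.9 CPM in the HUPO CM and 64.2, 40.2 and 0 CPM in the control CM libraries. It was at least 206-fold higher in HUPO CM and at least 298-fold higher in control CM than in NCM, against a floor of 3 counts over the NCM group (adjusted p = 0.00026 and 0.0001, edgeR). One control CM library also had no Trem2 read. The platelet list was higher in NCM without overlap in both arms, at 156 to 323 CPM in HUPO NCM and 30.3 to 132 CPM in HUPO CM, and at 362 to 806 CPM in control NCM and 205 to 328 CPM in control CM, and its part in the Cd9 difference was not tested.

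Genes around the 9 were followed in lists of their pathways. Of 24 tested genes listed as Trem2 signalling partners, which include kinases, phosphatases and other TREM and SIRP receptors, 3 rose in HUPO FH1 and none fell. There, 0.843% of all genes were called. They were Trem1, a receptor of neutrophils and monocytes that also signals through DAP12, at 313 CPM in HUPO and 0.025 CPM in control FH1, Sirpb1a at 7.73 and 0.080 CPM, and Trem3, at least 131-fold higher in HUPO FH1, where control FH1 had 0 and the floor is 3 counts over the group. All 3 encode other receptors, and no kinase or phosphatase gene of the list was called in FH1. The neutrophil list was higher in the same HUPO FH1 libraries, as given above, and its part was not tested. In HUPO NCM, 1 gene of the list rose, Ms4a6d, at 487.5 CPM in HUPO and 110.0 CPM in control NCM (edgeR adjusted p = 0.028). None of the 24 was called in CM, FI1, FI3 or FH2. The median log2 fold change of the list in FH1 was 0.54, against 0 over all genes.

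Of 30 other lipid-associated and disease-associated macrophage genes, 3 rose in HUPO FH1, 5 in FH2 and 5 in FI3, and none fell there, against 0.843%, 0.651% and 1.07% of all genes called. The median log2 fold change of this list was 0.50 in FH1, 0.72 in FH2 and 0.84 in FI3, against 0, -0.11 and 0 over all genes. The 3 in FH1 were Spp1 (osteopontin), at 12614 CPM in HUPO and 220.1 CPM in control libraries (edgeR adjusted p = 0.027), Cd52 at 293 and 24.9 CPM (4.9e-08), and Itgax, which was counted mainly in 1 HUPO library. Among those in FH2 were Ctsb, the cathepsin B gene, at 10975 CPM in HUPO and 4657 CPM in control libraries (6.4e-05), Apoe at 16017 and 3194 CPM (0.0042), and Cd68 at 2595 and 1385.7 CPM (0.033). Among those in FI3 were Clec7a (dectin-1) at 1689 CPM in HUPO and 592 CPM in control libraries (0.0016), Cstb at 1948 and 554 CPM (0.0042) and Cd68 at 1445 and 708 CPM (0.0069). In FI1, 3 fell in HUPO libraries. They were Apoe at 612 CPM in HUPO and 2474 CPM in control FI1 (0.037), and Igf1 and Itgax, at least 95.3-fold and at least 202-fold higher in control FI1, against a floor of 3 counts over a HUPO group at 0. The Apoe ranges overlapped, at 415 to 730 CPM in HUPO and 642 to 3755 CPM in control FI1. Itgax ran from 1.54 to 52.6 CPM in control FI1. Control FI1 replicates 2 and 3 were rich in fibroblast transcripts, and the part of those cells in these 3 genes was not tested. In NCM, 4 rose, among them Clec7a at 418 CPM in HUPO and 161.5 CPM in control NCM (0.0071). In CM, Itgax was at 0 in HUPO, and control CM was at least 441-fold higher.

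Among 9 tested partners of lipoprotein lipase, Apoc2, the apolipoprotein that activates the enzyme, rose in HUPO FH1 (39.1 CPM in HUPO and 0.774 CPM in control libraries, edgeR adjusted p = 0.0028). It also rose in FH2 (101.2 and 3.15 CPM, 0.011) and FI3 (100.5 and 6.13 CPM, 0.031), and no other partner was called in these populations. Of 17 tested lipid droplet and triglyceride genes, none was called in FH1, FH2, FI1, FI3 or CM, and Abhd5, the activator of the main triglyceride lipase, fell in HUPO NCM (0.188 CPM in HUPO and 33.5 CPM in control libraries, 0.037). Of 9 lipid-sensing transcription factors, Cebpb rose in HUPO FI3 (2864 and 1337 CPM, 0.00071) and FH2 (3141 and 1862 CPM, 0.047). None of 9 MiT/TFE factors and regulators, 3 tested fatty acid binding proteins or 12 other tetraspanins was called between HUPO and control mice in any population by edgeR. Of 4 tested galectins, Lgals1 rose in HUPO NCM (135.6 and 55.1 CPM, 0.0497).

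Ankle against blood, 19 of the 30 other lipid-associated genes rose and 1 fell in HUPO mice, with a median log2 difference of 2.12, and 17 rose and 3 fell in control mice, with a median of 2.03. The medians over all genes tested were 0.20 and 0.11. Of the 24 Trem2 signalling partners, 3 rose and 5 fell in HUPO ankles, and 1 rose and 11 fell in control ankles, with medians of -0.24 and -1.15. Over all genes, 11.2% were called in HUPO and 12.7% in control mice in these comparisons. Those lower in ankle included Ptpn6, which encodes the phosphatase SHP-1, and the Src-family kinase gene Lyn, in both arms.

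Across the 39 libraries, Trem2 ran most closely with Capg (Pearson r of log2(CPM + 1) 0.91 over libraries, 0.96 over the 13 group means), Lgals1 (0.89, 0.95), Crip1 (0.89, 0.94), 1110007C09Rik (0.88, 0.92) and S100a10 (0.88, 0.93), of 8012 genes compared. Gpnmb ran most closely with Cav1 (0.89, 0.96), Aldoart1 (0.89, 0.94), Aldoa (0.88, 0.94), Ftl1 (0.85, 0.95) and Pdpn (0.84, 0.91). Aldoart1 and Aldoa are near-identical copies and may share reads. Among the 9, Trem2 ran most closely with Cd63 (0.84) and Lpl (0.83), and Tyrobp ran opposite to Trem2 (-0.54) and Cd63 (-0.64). The libraries cluster by tissue and population and several come from the same animals, so these values describe the groups and carry no test.

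**Figure D5:**
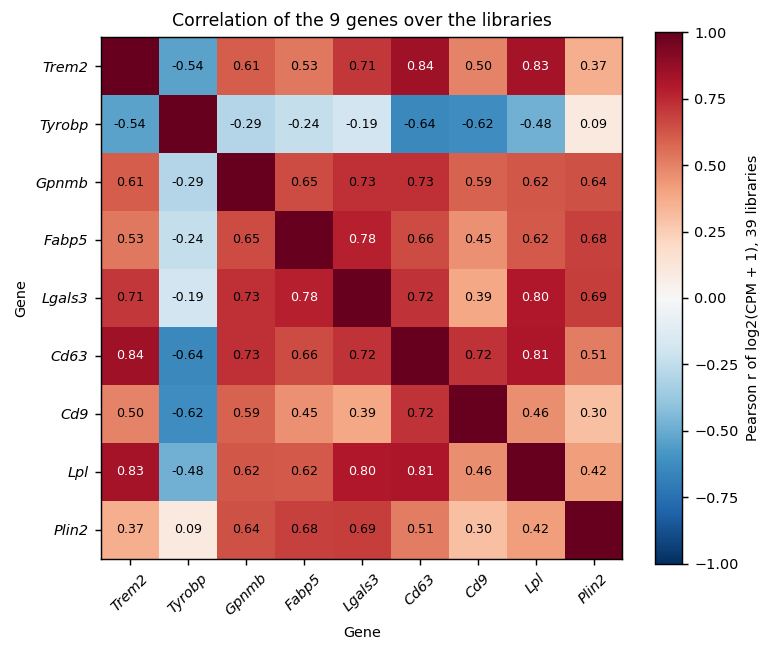
Pearson r of log2(CPM + 1) between each pair of the 9 genes over the 39 libraries, as colour and as number. The Tyrobp row is negative except for its pair with Plin2 (0.09), and the pair of Trem2 and Cd63 has the highest value (0.84).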

How the data were processed

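The files hold raw counts for each gene symbol as the authors deposited them, per the file headers, and all values are whole numbers; builds and tools named in the submitters' processing notes are mm10 and FastQC, STAR, HTSeq and Cufflinks (no version, no role). Whether counting used strand is not given in the sources used here. Low-quality libraries, the control libraries that correlated least, and HUPO F4/80-high libraries with neutrophil genes had been dropped by the authors, per the design text, which narrows the spread between those kept. Groups follow the labels. Counts (7390 to 10804 genes detected per library) were fitted with edgeR 4.0.16 in R 4.3.3: TMM scaling, filterByExpr over the 13 groups, 1 mean per group, robust quasi-likelihood tests with 26 residual degrees of freedom, 2-sided, Benjamini-Hochberg over 12450 genes. The fit was also run on simulated counts with a dispersion set far below that of these data (median trended dispersion 2.29). That run does not show how the test behaves here. Alternatives were DESeq2 1.42.0, RLE size factors, no filter, the animal as a block, each library left out and, chosen after seeing the data, a term for sex and leaving out the fibroblast-rich control FI1 libraries. The block was fitted only within an arm and a tissue. Comparisons of the arms, of ankle with blood and of the effect in FH minus FI had none. Animal numbers in the titles pair populations of one tissue (in 3 control libraries the number has an unexplained suffix, and number and suffix together were taken as the animal); same-animal deviations correlated at -0.02 to 0.05, median 0.01, over 36 pairs. The 9 genes and the 9 pathway lists were chosen with earlier results of these data known. All 9 genes are described, up to 3 called genes per list, and the 5 genes most like Trem2 and Gpnmb (at least 32 CPM in a group). Loci and transcript lengths are GRCm38 annotation. Bounds against a group at 0 use 3 counts over the group and cover counting error only.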

Additional observations from a re-analysis of the deposited data

Results flagged for a closer look

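Lgals3 was picked out because its HUPO effect differed between the F4/80-high and F4/80-intermediate populations by the test of the difference itself, at log2 1.36 (edgeR, adjusted p = 1.4e-05). The F4/80-intermediate side is an average of unlike populations. The arms overlapped in FI1, whereas Lgals3 was called higher in HUPO FI3.

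For Trem2, Tyrobp and Cd9, all HUPO libraries lay above all control libraries in FI3. They lay below all control libraries in FH1 for Trem2, in NCM for Tyrobp and in CM and NCM for Cd9. How many of all genes did so was not counted. These differences between populations were not tested. The Trem2 log2 fold change of HUPO over control was 0.77 in FI3 and -0.49 in FH1. That of Tyrobp was 0.76 in FI3 and -0.091 in NCM. That of Cd9 was 0.75 in FI3, -1.69 in CM and -2.15 in NCM. Of these, Tyrobp in FI3 and Cd9 in CM and NCM were called by edgeR.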

How the results depend on the processing

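With 3 libraries a group and a median trended dispersion of 2.29, edgeR calls few genes, and genes with libraries at 0 (Trem2, Gpnmb, Fabp5, Cd63, Lpl) carry wide errors, so an uncalled difference is not shown to be absent. Under other settings, with no library left out, 1198 single-gene results kept direction and side of the threshold, 65 lost and 17 gained a call and 15 reversed; 15 of 117 mean levels moved by more than 1 SD on plain totals. The causes of the changes below were not tested. The lone control FI1 library left without the fibroblast-rich ones is assumed to vary like the other groups. Shares of all genes called are percentages of the 12450 genes that passed the filter.

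With the animal as replicate block, all genes called were 1.28% in HUPO FH against FI, 0.964% in control FI3 against FI1, 0.249% in control FH2 against FH1 and 0.104% in HUPO FI2 against FI3. Under this pairing Fabp5 in control NCM against CM was log2 0.0046, and in control FH2 against FH1 Tyrobp was -0.43, Cd9 0.10 and Plin2 0.13. Among the 9 genes the block ended the Plin2 call and gave a Lgals3 call in control FI3 against FI1, and changed no other call. With a term for sex, all genes called were 0.337% in CM, 8.47% in control ankle against blood and 0.0241% in FI2 against FI3, the members called in FI3 were 1, Lgals3 in NCM was -0.019 and the Cd63 effect in FH minus FI -0.024. DESeq2 called 10.3% of all genes in CM, 8.71% in NCM, 7.68% in FI1, 9.57% in FI3, 6.41% in FH1 and 6.23% in FH2 between HUPO and control mice. Within HUPO mice it called 23.4% in ankle against blood, 11.7% in NCM against CM, 10.3% in FH against FI, 10.2% in FI2 against FI1 and 6.74% in FI2 against FI3. Within control mice it called 26.2% in ankle against blood, 9.97% in NCM against CM, 14.5% in FH against FI, 13.1% in FI3 against FI1 and 4.32% in FH2 against FH1, and 8.48% for the HUPO effect in FH minus FI. Members called by DESeq2 were 3 in CM, 2 in NCM, 2 in FH1, 6 in HUPO FH against FI, 2 in control FH2 against FH1 and 2 for the effect in FH minus FI. Cd63 in FH1 was -0.037 with DESeq2, -0.037 with RLE size factors and -0.0078 with no filter, and Tyrobp in control FH2 against FH1 -0.020, -0.020 and -0.028; with RLE, 0.0241% of all genes were called in FI2 against FI3. Without both fibroblast-rich libraries, all genes called were 0.0643% in FI1, 8.31% in control ankle against blood, 2.31% in control FH against FI and 0.892% in control FI3 against FI1; Trem2 in FI1 was 0.96, Lpl in control FH against FI -0.034 and the Cd63 effect in FH minus FI -0.15.

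Leaving out each replicate in turn, members called ranged over 0 to 1 in CM, 1 to 2 in NCM, 1 to 2 in FI3 and 1 to 2 in FH2. All genes called ranged over 0.345 to 0.964% in CM, 0.474 to 1.49% in NCM, 0.0321 to 0.723% in FI1, 0.602 to 1.14% in FI3, 0.265 to 0.458% in FH2, 0.586 to 1.15% in control NCM against CM, 0.241 to 0.378% in control FH2 against FH1, 0.506 to 0.755% in HUPO FI2 against FI1, 0 to 0.0562% in HUPO FI2 against FI3 and 0.169 to 0.337% for the effect in FH minus FI. The log2 differences of the 9 genes that changed sign had not been called. Between HUPO and control mice they ranged, in CM, over -0.70 to 0.69 (Trem2), -0.20 to 0.11 (Plin2), -6.23 to 0 (Cd63) and -0.38 to 1.61 (Lpl), and in NCM over -0.44 to 0.74 (Fabp5), -7.07 to 5.62 (Cd63), -2.33 to 8.22 (Lpl), 0 to 7.53 (Gpnmb) and -0.080 to 0.22 (Lgals3). They ranged in FI1 over -1.01 to 0.080 (Lpl) and -0.44 to 0.038 (Plin2), in FI3 over -0.54 to 0.46 (Lpl) and -0.10 to 0.95 (Fabp5), in FH1 over -0.052 to 0.071 (Cd63) and in FH2 over -0.27 to 0.11 (Trem2). For HUPO NCM against CM they ranged over -1.95 to 6.94 (Gpnmb), 0 to 6.21 (Cd63) and -0.51 to 0.058 (Plin2), and for control NCM against CM over -5.61 to 7.07 (Cd63). For FI2 against FI3 they ranged over -0.22 to 0.87 (Fabp5) and -0.053 to 0.10 (Lgals3), and for control FH2 against FH1 over -0.092 to 0.069 (Tyrobp), -0.67 to 1.93 (Gpnmb) and -0.19 to 0.046 (Cd9). The effect in FH minus FI ranged over -0.21 to 0.17 (Cd63), -0.51 to 0.016 (Cd9) and -2.09 to 2.79 (Gpnmb).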
